A study of Mus musculus with 30 samples.

Results

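The mitochondrial ribosomal protein genes were followed across 10 groups of mouse dendritic cells derived from bone marrow. They were taken as every row of the deposited count table whose gene symbol begins with Mrpl or Mrps followed by a digit. This gave 78 genes of 25611 rows, 49 of them Mrpl and 29 Mrps, on 17 chromosomes. All 78 were among the 14808 genes with enough reads to be tested. Their lowest count in any library was 40.

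The cells were differentiated with FLT3L, a cytokine that drives dendritic cell development, at 200 ng/ml. The labels give culture days 6 to 7 for all of them. The cells came from wild-type mice (WT) or mice with a knockout of Rubcn (KO), which encodes Rubicon, a regulator of autophagy and of LC3-associated phagocytosis. Each genotype was left untreated, given OVA, or given apoptotic Jurkat cells, and treated cells were collected after 30 min or 4 h. Jurkat is an established human line of leukaemic T cells. The 10 groups held 3 libraries each, 30 in all. The labels give no age, and do not say whether replicates came from separate mice or cultures, so p-values measure the spread between these libraries, which may be technical. The labels do not give the form of the OVA, the knockout allele or the ratio of Jurkat cells to dendritic cells.

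Mitochondria carry their own ribosome, which translates the few proteins encoded in mitochondrial DNA, all of them parts of the respiratory chain and ATP synthase. Its proteins are encoded in the nucleus, made in the cytoplasm and imported. Many descend from bacterial ribosomal proteins, and others were added in the course of mitochondrial evolution. In dendritic cells, stimulation is known to shift metabolism between respiration and glycolysis.

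By role, 51 of the genes encode proteins of the large subunit and 26 of the small subunit. Despite their names, Mrps30 and Mrps18a belong to the large subunit, and Mrps36 encodes a subunit of the alpha-ketoglutarate dehydrogenase complex and not a ribosomal protein. A bacterial counterpart exists for 46 of the proteins, and 31 are specific to mitochondria. Genes of mitochondrial DNA were not analysed here.

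The promoters of these genes often share motifs of factors known for nuclear genes of mitochondrial function. NRF1, the ETS factor GABP and YY1 are such factors. Promoters (250 bases before to 50 after the start, RefSeq, GRCm38.p6) were at hand for 69 of the 78 genes. The ETS motif CCGGAAGT, read on both strands as all motifs here, stood in 12 of the 69 (17.4%), against 5.65% of 18310 genes with a promoter. The YY1 motif AAGATGGC also stood in 12 (17.4%), against 3.58%. The NRF1 motif GCATGCGC stood in 8 (11.6%), against 3.95%. A GC box, GGGCGG, was no more frequent than elsewhere, in 34 (49.3%) against 49.0%. The E-box CACGTG stood in 5 (7.25%) against 9.14%, and the ERR motif TCAAGGTCA and the ATF4 motif TGATGCAA stood in 0, against 0.404% and 1.04%. These matches describe letters in the sequence and are not measured binding sites. The 6 stretches of 30 bases below come from genes given further down as the largest changes or smallest p of a comparison. Of those that hold the NRF1, ETS or YY1 motif, they are the ones with the smallest p-values. Mrpl18, described below, also holds the ETS motif but was not among the genes so given. The stretches are shown 5′ to 3′ on the strand of the gene with the motif in capitals.
Mrpl39, NRF1 motif on both strands, chr16:84735350-84735379, minus strand: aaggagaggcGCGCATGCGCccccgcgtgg
Mrpl42, YY1 motif, chr10:95501904-95501933, minus strand: cagattgaagcAAGATGGCgagcgcgcggt
Mrps26, ETS motif on the other strand, chr2:130563731-130563760, plus strand: gctccgcggccACTTCCGGgccgggcgcag
Mrpl33, ETS motif, chr5:31613937-31613966, plus strand: ccgcgcatgccCCGGAAGTagtcgttgagc
Mrpl49, YY1 motif, chr19:6057721-6057750, minus strand: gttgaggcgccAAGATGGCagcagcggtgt
Mrps7, YY1 motif, chr11:115604147-115604176, plus strand: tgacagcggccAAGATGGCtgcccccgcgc
The 3 YY1 motifs begin at base 28, 17 and 19 of the RefSeq transcripts of Mrpl42, Mrpl49 and Mrps7, and the ETS motif of Mrpl33 spans the start. The stretch of Mrpl33 also holds the NRF1 motif on the other strand, left in lower case, at bases -12 to -5 from the start.

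The genes often lie head to head with another gene. For 31 of the 78 (39.7%), a gene on the opposite strand starts within 1000 bases, against 11.9% of all rows. Mrpl46 and Mrps11 form such a pair with each other. The intervals of 12 (15.4%) overlap another row, against 26.5% of all rows. Whether the authors' counting used strand is not given in the sources used here, so counts of genes whose exons overlap another gene are uncertain. This concerns 26 of the 78, and those named in the results are given here. On the same strand the overlap took in 464 of the 846 exon bases of Mrps6 (with Slc5a3), 174 of 940 of Mrps18c and 107 of 478 of Mrpl33. On the other strand it was largest for Mrps18b (638 of 1079 bases), Mrps25 (3533 of 6073) and Mrpl24 (594 of 1557). Next came Mrpl43 (385 of 1398, with Twnk), Mrpl13 (330 of 1223, with Mtbp) and Mrps27 (417 of 1849). It was smaller for Mrpl47 (610 of 3364), Mrps30 (601 of 3319), Mrpl12 (200 of 1316) and Mrpl10 (240 of 1708). The same holds for Mrps7 (246 of 1962), Mrpl27 (75 of 756), Mrpl21 (117 of 1363) and Mrpl49 (91 of 1764). For Mrpl36, Mrpl18 and Mrps26 it was 30, 17 and 8 bases.

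Total counts ran from 9734778 (KO, OVA for 30 min, replicate 3) to 51642601, and 38680894 was the least in any other library. The level of Rubcn did not overlap between the genotypes in any of the 5 conditions and was the lower one in KO, at 70.4 to 75.8 CPM (CPM is the count relative to the TMM-scaled library size) in untreated KO and 95.6 to 104.6 in untreated WT. Replicate 2 of KO given Jurkat cells for 4 h stood apart, with a summed level of mitochondrial tRNA synthetase genes of 4201 CPM against 558 to 630 in its 2 partners. Its gene of most counts was Rn45s, a ribosomal RNA, at 3.90% of counts, and in its partners Cd74, at 1.42 and 1.40%. Whether ribosomal RNA has a part in that summed level was not tested, so it is not read as a rise of the synthetases. The 18 dendritic cell markers were detected in every group. Their sum was 39980 to 44916 CPM after 4 h of Jurkat cells and 26435 to 29583 CPM in the other groups. With total counts in place of TMM factors, 6 of them were higher and 10 lower in WT after 4 h of Jurkat cells. The 30 T-lineage markers summed to 329 to 336 CPM in untreated WT, 394 to 403 after 30 min of Jurkat cells and 483 to 493 after 4 h, and to 330 to 352, 365 to 377 and 408 to 414 in KO. The defining marker Cd3e rose from 0.08 CPM to 6.09 after 4 h in WT, and Cd3d was at 0.11 and 0.04. The part of Jurkat RNA in the results after Jurkat cells was not tested, and in these bulk samples fewer cells of a type and less RNA per cell cannot be told apart.

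As a whole the genes kept a nearly constant level. Their summed level lay between 2014 and 2314 CPM in all 30 libraries. It was 2124 ± 58.3 CPM (SD, n = 3) in untreated WT and 2140 ± 71.8 in untreated KO. The highest group was WT given Jurkat cells for 30 min, at 2252 ± 86.9, and the lowest KO given Jurkat cells for 4 h, at 2042 ± 18.3. The ratio of large to small subunit genes stayed between 2.30 and 2.42. As a share of all raw counts, without TMM scaling, the genes made up 0.154 to 0.174% after 4 h of Jurkat cells and 0.211 to 0.241% in all other libraries. TMM factors in the former were 0.765 to 0.842, against 1.03 to 1.07 in the latter.

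**Figure D1:**
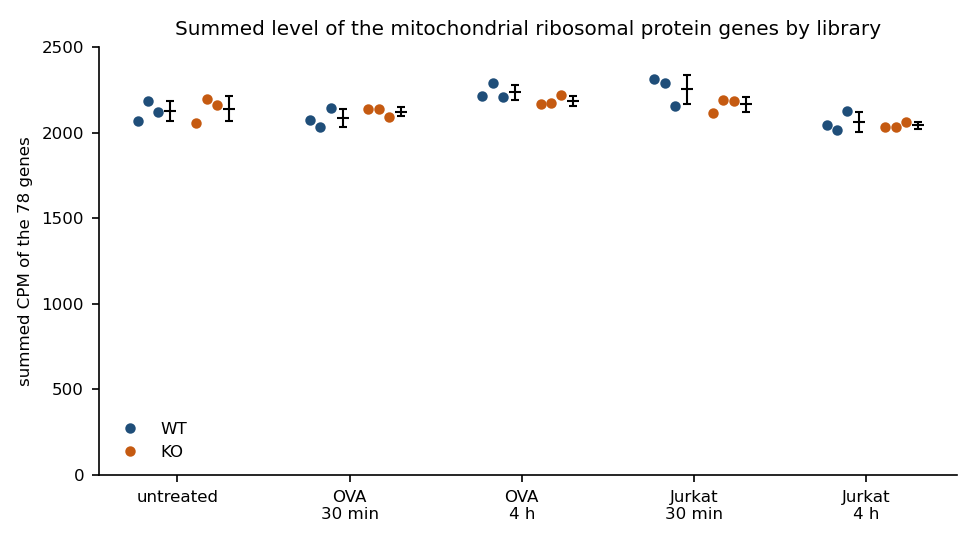
Summed CPM of the 78 genes in each of the 30 libraries (points), by treatment and genotype, with the mean and SD of each group of 3 in black. All libraries lie between 2014 and 2314 CPM.

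Single genes moved little as well, on TMM-scaled library sizes. The highest group mean of a gene exceeded its lowest by a median factor of 1.34, and by under 1.5 in 56 of the 78 genes (71.8%), against 44.8% of 10230 tested genes with a mean of at least 5 CPM, whose median factor was 1.57. Mrpl37, a large-subunit protein specific to mitochondria, was the steadiest, at a factor of 1.06. This depends on the scaling: without TMM factors Mrpl37 changed after 4 h of Jurkat cells by -0.40 in WT and -0.28 in KO on the log2 scale. Mrpl39, another such protein, varied most, at 2.81, followed by Mrps35 at 2.56.

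Per transcript length, levels in untreated WT spanned a factor of 38.9, with a median of 15.3 CPM per kilobase of exon. Mrpl52 was highest at 108.7 ± 5.29 (SD, n = 3), then Mrpl33 at 96.9 ± 4.89 and Mrpl28 at 55.6 ± 1.52. Mrpl47 was lowest at 2.79 ± 0.21, below Mrpl1 at 3.56 ± 0.01 and Mrps5 at 3.57 ± 0.07. In the order of levels, only 15 of 77 pairs of neighbours had libraries that did not overlap, so most neighbours were not separated by the spread between libraries. The 3 paralogs of the S18 family stood at 25.1 ± 0.62 (Mrps18c), 22.5 ± 1.75 (Mrps18a) and 15.6 ± 1.40 (Mrps18b). Exon lengths are those of GENCODE M21, so the level of a gene with long annotated exons that these cells do not use is understated.

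**Figure D2:**
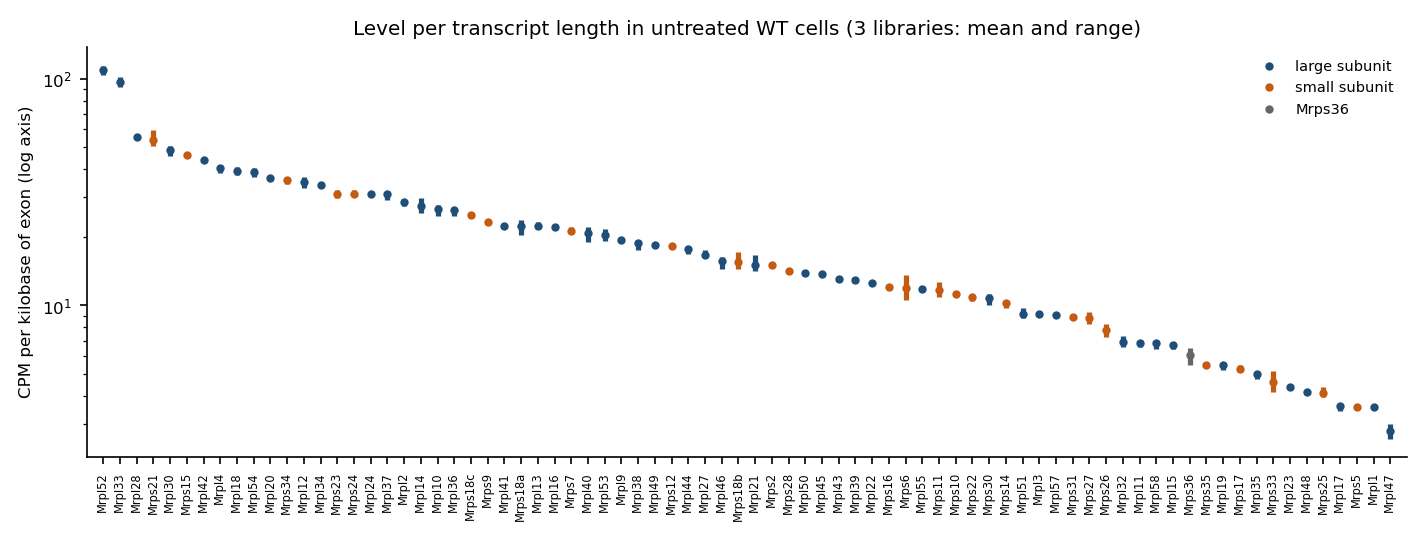
CPM per kilobase of annotated exon in untreated WT for the 78 genes, on a log axis, in descending order. Points are means and bars the range of 3 libraries, coloured by subunit; the order falls from Mrpl52 at 108.7 to Mrpl47 at 2.79.

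The first question was how each treatment changed these genes against untreated cells. A gene was called changed in edgeR's quasi-likelihood F test when its FDR, the p-value adjusted by Benjamini and Hochberg's method for the 14808 genes tested, was under 0.05. Fold changes are on the log2 scale with their standard error (SE).

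After 30 min of OVA, 3 of the 78 genes fell and 0 rose in WT, against 10.7% of all genes called in either direction. Mrpl34, a small basic protein of the large subunit, went from 20.2, 20.2 and 21.3 CPM to 16.3, 17.7 and 18.1, a log2 change of -0.25 (SE 0.06, FDR = 0.0098). Mrps25 changed by -0.23 (FDR = 0.00399) and Mrpl14 by -0.21 (FDR = 0.0465). In KO, Mrpl44, which has an RNase III-like fold, was the only one called, at -0.22 (FDR = 0.0068), against 3.77% of all genes. In WT, 1 gene was called without replicate 1 of the OVA group and 6 without its replicate 3, and in KO 2 without replicate 1 of the untreated group. No gene was called in both genotypes.

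After 4 h of OVA, 14 genes rose and 0 fell in WT, against 11.9% of all genes higher and 11.7% lower. Mrpl14, a core protein of the face that meets the small subunit, stood at 17.2, 19.1 and 16.6 CPM in untreated WT and 21.8, 24.4 and 20.6 after OVA, a change of 0.33 (SE 0.07, FDR = 0.000317). Mrps6 rose by 0.33 (FDR = 0.00389) and Mrpl12, part of the stalk that recruits translation factors, by 0.31 (FDR = 0.000419). Mrpl17 rose by 0.26 and Mrpl20 by 0.24. All were rises of at most 1.26-fold. The groups did not overlap for these genes, which was a condition for giving them. In KO, 4 rose and 0 fell, against 5.94% higher and 5.69% lower. These were Mrpl14 at 0.32 (FDR = 0.00143), Mrpl27 at 0.23, Mrpl57 at 0.19 and Mrps21 at 0.17 (FDR = 0.0448), and Mrpl14 was the only gene called in both genotypes. The count in KO was 2 without replicate 3 of the OVA group, and Mrps21 lost its call whichever of the 6 libraries was left out. In WT it was 9 without replicate 2 of the OVA group. In the same WT comparison, 10 of 35 nuclear complex I genes and 12 of 82 cytoplasmic ribosomal protein genes rose and none fell.

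After 30 min of Jurkat cells, 23 genes rose and 2 fell in WT, against 14.2% of all genes higher and 14.5% lower. Mrpl54, a large-subunit protein specific to mitochondria, rose most, from 22.3, 24.4 and 23.6 CPM to 31.0, 31.5 and 27.3, a change of 0.35 (SE 0.05, FDR = 8.27e-06). Mrps34 and Mrpl57 each rose by 0.27, Mrps11 by 0.25 and Mrpl2, a protein next to the catalytic centre, by 0.24. Mrpl49 fell by 0.21 (FDR = 0.000927) and Mrpl50 fell by 0.14 (FDR = 0.0352). The largest of these changes was 1.28-fold, and 14 genes in all were called without replicate 3 of untreated WT. Of the lists set beside them, 25 of 35 complex I genes and 29 of 82 cytoplasmic ribosomal protein genes rose and 0 fell, and 13 of 29 T-lineage markers rose.

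In KO, 30 min of Jurkat cells raised 4 of the 78 genes and lowered 4, against 8.72% of all genes higher and 8.26% lower. Mrpl27, Mrpl54, Mrpl57 and Mrpl3 rose by 0.13 to 0.19. Mrpl49 fell from 32.8, 32.0 and 32.3 CPM to 25.7, 27.5 and 30.2, by 0.22 (FDR = 0.0013), and Mrpl44, Mrps25 and Mrpl24 were the others that fell. Complex I and cytoplasmic ribosomal protein genes were called higher in 1 of 35 and 3 of 82. Without replicate 2 of the treated group, 4 genes in all were called. In both genotypes 4 genes were called higher and Mrpl49 lower, and 0 were called in opposite directions. That more genes passed the threshold in WT than in KO does not show a difference, and the test of the difference itself called 0 of the 78, as described further down.

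After 4 h of Jurkat cells the picture was different: most genes changed, in both directions. In WT, 22 rose and 36 fell, against 38.9% of all genes higher and 40.6% lower. In KO, 21 rose and 36 fell, against 37.5% higher and 41.0% lower, and without replicate 2, which stood apart, 55 in all were called. The shares called (74.4% of the 78 in WT and 73.1% in KO) were thus no higher than among all genes, and the changes were smaller. The SD of the log2 changes over the 78 genes was 0.47 in WT, against 1.16 over all genes of at least 5 CPM. The median change was -0.05 in WT and -0.09 in KO. A change of at least 1.5-fold was reached by 15 genes in WT and 14 in KO, and of at least 2-fold by 2 in each.

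**Figure D3:**
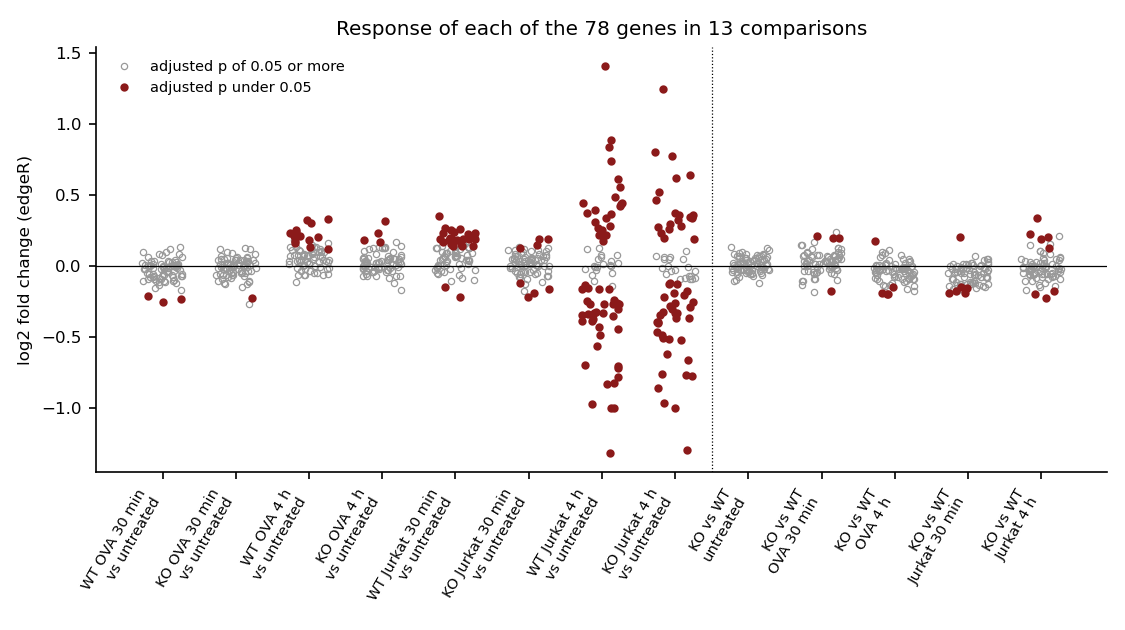
Log2 fold change of each of the 78 genes (points) in the 8 comparisons of a treatment with untreated cells and the 5 of KO with WT. Filled points had an FDR under 0.05. The points spread from -1.31 to 1.41 after 4 h of Jurkat cells and stay within 0.4 of 0 elsewhere.

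Mrpl39 rose most. It encodes a large-subunit protein with a domain related to threonyl-tRNA synthetase (chr16:84717580-84735302, mm10, minus strand). In WT it went from 29.2, 30.7 and 29.0 CPM to 76.9, 77.8 and 81.5, which is 2.66-fold, or 1.41 on the log2 scale (SE 0.05, FDR = 1.85e-21). In KO it went from 28.1, 28.7 and 29.6 to 69.0, 66.4 and 70.6, or 1.25 (SE 0.05, FDR = 3.45e-20). In the other 8 groups it stayed between 27.0 and 35.7 CPM, far from the 6 libraries given Jurkat cells for 4 h.

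Mrpl14 (chr17:45686349-45698495, plus strand) rose from 17.2, 19.1 and 16.6 CPM to 30.9, 34.03 and 33.4 in WT, a change of 0.89 (SE 0.07), and by 0.81 in KO. Mrps6, a small-subunit protein with a bacterial counterpart, rose from 8.91, 9.85 and 11.5 CPM to 18.1, 19.3 and 17.0, by 0.84 (SE 0.08) in WT and 0.78 in KO. Slc5a3, whose exons overlap it on the same strand, had a change of 0.98 in WT, and which of the 2 the reads came from cannot be told apart. Mrpl54 rose from 22.3, 24.4 and 23.6 CPM to 38.8, 38.6 and 40.1, by 0.74 in WT and 0.65 in KO. Mrpl27, which reaches into the catalytic centre, rose by 0.62 in WT and 0.52 in KO. Mrps7, which binds the head of the small subunit near the exit site, rose by 0.56 and 0.62. No library of the treated groups overlapped an untreated one for these genes. This was a condition for giving them, set in WT or KO, and is not a result.

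Mrps35 fell most. It encodes a small-subunit protein specific to mitochondria (chr6:147042770-147070902, plus strand). In WT it went from 22.4, 23.2 and 22.7 CPM to 9.84, 8.43 and 9.19, or 40.3% of the untreated level, a log2 change of -1.31 (SE 0.07, FDR = 7.57e-17). In KO it went from 22.2, 25.0 and 23.1 to 8.51, 9.67 and 10.5, a change of -1.30 (SE 0.07, FDR = 6.79e-17). In the other 8 groups it stayed between 20.5 and 25.0 CPM.

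Mrps26 (chr2:130563757-130565394, plus strand), also of the small subunit and specific to mitochondria, went from 31.1, 35.4 and 34.1 CPM to 18.1, 15.5 and 16.6 in WT, a change of -0.999, and changed by -0.86 in KO. Mrpl42 (chr10:95480806-95501927, minus strand) went from 29.7, 30.2 and 29.1 CPM to 14.0, 15.1 and 15.6 in WT, a change of -0.997, and changed by -0.997 in KO as well. Mrpl28, which has a bacterial counterpart, went from 57.9, 61.1 and 59.1 CPM to 29.8, 29.3 and 32.0, or -0.97 in WT and -0.96 in KO. Mrpl49, already lower after 30 min, changed by -0.83 in WT and -0.77 in KO. Again no treated library overlapped an untreated one, which was a condition for giving these genes. Mrpl34, Mrpl33, Mrpl41, Mrpl18 and Mrpl43, all of the large subunit, were the next in WT, at -0.82 to -0.69.

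**Figure D4:**
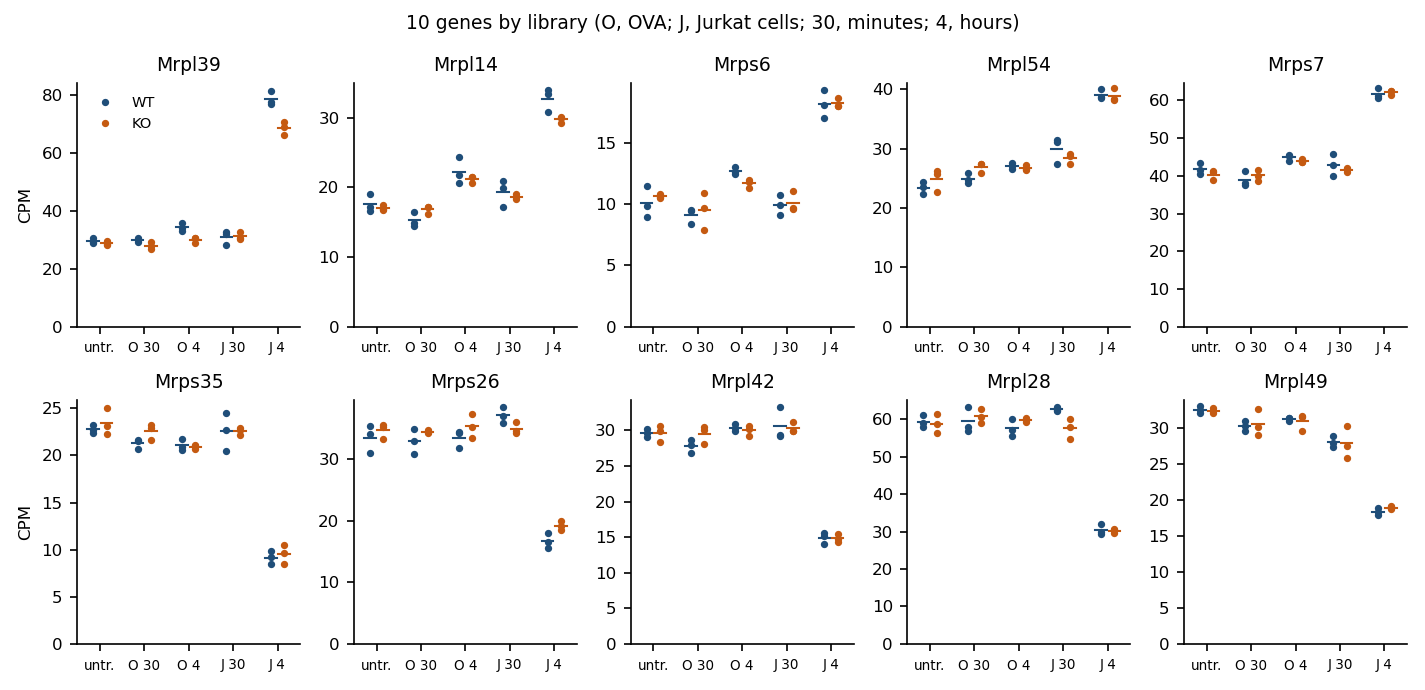
CPM of 5 genes that rose (top row) and 5 that fell (bottom row) after 4 h of Jurkat cells, in every library, with the group mean as a line. In each panel the 6 libraries given Jurkat cells for 4 h lie apart from the untreated ones, for example at 66.4 to 81.5 CPM for Mrpl39 and 8.43 to 10.5 for Mrps35. The genes were chosen from those without overlap in WT or KO.

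The changes after 4 h of Jurkat cells were alike in the 2 genotypes, each set against its own untreated libraries. Of the 78 genes, 54 were called in both, 20 higher and 34 lower, and 0 in opposite directions. That is 69.2% called in both, against 72.6% of all genes (35.0% higher, 37.6% lower, and 0.142% in opposite directions), so the share is no larger than among all genes. Across the 78 genes, Pearson's r between the changes in WT and in KO was 0.98 and Spearman's rho 0.97, a description over genes, which share libraries and are not replicates. The sign was the same for 73 (93.6%), against 92.6% of all genes. The furthest apart was Mrps36, the dehydrogenase subunit, at -0.48 in WT and -0.20 in KO. Genes called in only 1 genotype were Mrps17, Mrps2, Mrps10 and Mrpl1 in WT and Mrps30, Mrps9 and Mrps18b in KO. With total counts Mrps10 and Mrpl1 turned to -0.22 and -0.18 in WT and Mrps18b to -0.04 in KO. With TMM factors 17 were called in neither, among them Mrpl37, Mrpl4 and Mrpl47.

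**Figure D5:**
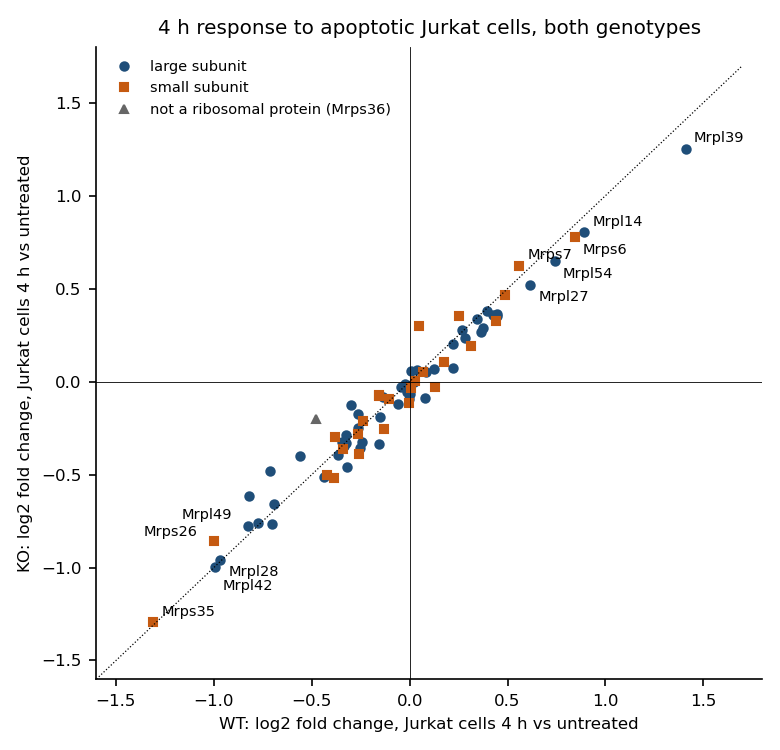
Log2 fold change after 4 h of Jurkat cells against untreated cells in WT (horizontal) and KO (vertical) for the 78 genes, by subunit, with the genes of largest change named. The dotted line marks equal change; the points follow it from Mrps35 at -1.31 and -1.30 to Mrpl39 at 1.41 and 1.25.

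Both subunits held rises and falls. In WT, 15 of 51 large-subunit genes rose and 23 fell, and 7 of 26 small-subunit genes rose and 12 fell, with a median of -0.05 in each. Of the 46 genes with a bacterial counterpart, 14 rose and 17 fell, with a median of 0.01, and of the 31 specific to mitochondria 8 rose and 18 fell, with a median of -0.26. Of the 29 genes with an NRF1, ETS or YY1 motif in the promoter, 9 rose and 13 fell, with a median of 0.00, and of the 40 with a promoter but none of these motifs 9 rose and 21 fell, with a median of -0.15. These splits are descriptions and were not tested.

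Head-to-head neighbours moved in the same or in opposite directions. For 30 such pairs both genes were tested, and in 17 both were called after 4 h of Jurkat cells in WT, 8 of them in the same and 9 in opposite directions. Mrpl18, for example, changed by -0.70 while its neighbour Tcp1, a chaperonin subunit, changed by 0.59. Mrpl14 and its neighbour Tmem63b rose together, by 0.89 and 2.43.

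How many genes count as higher after 4 h of Jurkat cells depended on the scaling. With plain total counts in place of TMM factors, the median of all genes moved by -0.40 in WT and -0.34 in KO. The split then was 6 higher and 61 lower in WT and 7 higher and 60 lower in KO. Among the genes called with TMM factors, the sign turned for 11 in WT and 9 in KO, all of them from higher to lower. Mrpl3, Mrpl11, Mrpl13, Mrpl21, Mrpl38, Mrpl46 and Mrps22 turned in both. With DESeq2's size factors the split was 27 higher and 30 lower in WT and 24 higher and 29 lower in KO. Under all 9 settings tried in both genotypes, 6 genes were always called higher (Mrpl14, Mrpl27, Mrpl39, Mrpl54, Mrps6 and Mrps7) and 26 always lower, Mrps35, Mrps26, Mrpl42, Mrpl28 and Mrpl49 among them. The share of all genes that kept their call in this way is not given here.

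Other genes of the mitochondrial translation machinery are set beside the ribosomal proteins for WT after 4 h of Jurkat cells. Of 20 mitochondrial tRNA synthetases and related enzymes, 16 fell and 0 rose, led by Gatc at -1.11, Cars2 at -1.42 and Hars2 at -0.76. Of 11 genes of mitochondrial DNA upkeep and transcription, 9 fell, among them Polrmt, the mitochondrial RNA polymerase, at -0.77, and Tefm rose by 0.43. Of 29 ribosome assembly factors, 16 fell, led by Rbfa at -2.51, and 7 rose, led by the methyltransferase Nsun4 at 0.61. Of 16 translation factors, 10 fell, Mtif3 by 1.08, and 3 rose, Slirp by 0.91. With total counts, Tefm was at 0.02 and not called, and the counts of these 4 lists were 0 higher and 19 lower, 0 and 10, 1 and 24, and 1 and 15. The differences between these lists and the ribosomal proteins were not tested.

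Of 5 mitochondrial ribosomal proteins that carry other names, 3 were called: Dap3 rose by 0.27 (with total counts it changed by -0.13), and Ptcd3 and Gadd45gip1 fell by 0.44 and 0.46. Among nuclear regulators of mitochondrial genes, Max rose by 1.52, Atf4 by 1.10 and Gabpb1, a GABP subunit, by 0.91, while Gabpb2, Sp1 and Esrra fell by 0.51, 0.27 and 0.33. Of complex I genes, 15 of 35 were higher and 12 lower, and of cytoplasmic ribosomal protein genes 12 of 82 were higher and 36 lower. With total counts these were 0 higher and 29 lower, and 4 higher and 73 lower. In the same comparison 19 of 20 proliferation genes fell, 24 of 29 T-lineage markers rose and 11 of 12 stromal markers rose. With total counts, 1 proliferation gene was higher and 19 lower, 21 T-lineage markers were higher and 5 lower, and 5 stromal markers were higher and 0 lower. The part of these genes in the results was not tested.

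Jurkat cells were also compared with OVA directly, with the genotypes averaged. At 30 min, 25 genes were higher with Jurkat cells and 1 lower, against 15.5% of all genes higher and 14.4% lower. Mrpl14 differed by 0.24 (SE 0.05, FDR = 0.000483), Mrpl27 by 0.19, Mrpl17 and Mrpl40 by 0.14 and Mrpl3 by 0.11. At 4 h, 21 were higher and 43 lower, against 39.4% higher and 43.2% lower. Mrpl39 led at 1.20 (SE 0.03, FDR = 1.04e-23), then Mrps6 at 0.58, Mrpl54 at 0.54, Mrpl14 at 0.52 and Mrps7 at 0.48. Mrps35 was lowest at -1.17, then Mrpl42 at -1.02, Mrpl28 at -0.95, Mrps26 at -0.94 and Mrpl33 at -0.83. With total counts the split at 4 h was 5 higher and 69 lower. At 30 min, 18 genes were called in all without WT OVA replicate 2.

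The other question was whether these genes differed between KO and WT. The Rubcn values given above show a lower count in KO and not an absence of its transcript. In untreated cells, 0 of the 78 differed in edgeR's test, against 9.97% of all genes at the same threshold, and 0 in DESeq2. At an unadjusted p under 0.05 there were 2, and no share of all genes is given at that cutoff. No difference between the means exceeded 0.14 on the log2 scale.

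After treatment, few genes differed between KO and WT, all by less than 1.3-fold. With OVA for 30 min, Mrpl52, Mrpl38 and Mrpl34 were higher in KO and Mrpl16 lower, against 12.4% of all genes. Mrpl52 stood at 52.7, 48.8 and 56.5 CPM in WT and 63.3, 61.7 and 57.3 in KO, a difference of 0.22 (SE 0.06, FDR = 0.0137). The libraries of Mrpl16 overlapped. With OVA for 4 h, Mrpl27 was higher in KO and Mrpl39, Mrps22, Mrpl30 and Mrpl36 lower, against 12.6% of all genes. Mrpl39 stood at 35.7, 34.1 and 33.2 CPM in WT and 29.0, 30.5 and 30.6 in KO, a difference of -0.19 (SE 0.05, FDR = 0.00592).

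With Jurkat cells for 30 min, Mrps27, which has RNA-binding repeats, was higher in KO at 0.21 (SE 0.06, FDR = 0.0172), and Mrps34, Mrpl57, Mrps21, Mrpl2 and Mrps14 were lower by up to 0.19, against 9.25% of all genes. Mrps27 stood at 16.6, 16.1 and 15.4 CPM in WT and 18.8, 18.3 and 18.3 in KO, without overlap. With Jurkat cells for 4 h, 5 genes were higher and 3 lower, against 22.9% of all genes. Mrps36 differed by 0.34 (FDR = 0.0146), Mrps18b by 0.23 (FDR = 0.00662), Mrpl34 by 0.21, Mrps26 by 0.19 and Mrpl10 by 0.13. Mrps22, a small-subunit protein specific to mitochondria, stood at 16.3, 15.5 and 16.7 CPM in WT and 13.8, 13.7 and 14.1 in KO, a difference of -0.22 (SE 0.05, FDR = 0.00364). Mrpl39 differed by -0.20 (SE 0.05, FDR = 0.00201), at 76.9 to 81.5 CPM in WT and 66.4 to 70.6 in KO, and Mrpl32 by -0.18. The shares of the 78 called in these 4 comparisons lay below those of all genes.

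Of the 78 genes, 20 differed between the genotypes in 1 or more of the 5 conditions, 17 of them in exactly 1 and 0 in 3 or more. These are 25.6%, 21.8% and 0% of the 78, against 37.1%, 22.1% and 7.91% of all genes tested. Mrpl39 and Mrps22 were lower in KO in 2 conditions and Mrpl34 higher in 2, and 0 were called in opposite directions. Most of these calls were lost in at least 1 fit that left out a library: leaving out 1 library at a time gave 0 to 3 calls with OVA for 30 min (0 without KO replicate 2), 0 to 4 with OVA for 4 h (0 without WT replicate 1), 0 to 6 with Jurkat cells for 30 min (0 without KO replicate 1) and 2 to 8 with Jurkat cells for 4 h (2 without WT replicate 2, 3 without KO replicate 2). With total counts, 12 genes were higher and 0 lower in KO with Jurkat cells for 4 h, and 5 higher and 0 lower with OVA for 30 min. The median difference was then 0.07 over the 78 and over all genes with Jurkat cells for 4 h, and 0.06 and 0.02 with OVA for 30 min. With OVA for 4 h the split was 1 and 1, and with Jurkat cells for 30 min 1 and 2. With DESeq2's size factors it was 3 higher and 5 lower with Jurkat cells for 4 h. In these comparisons, the calls of Mrpl39 and Mrps22 with Jurkat cells for 4 h were kept whichever of the 6 libraries was left out. Markers of other cells differed between the genotypes too: all 7 basophil and mast cell markers tested were higher in KO in all 5 conditions, and 8 to 10 of 12 stromal markers. With OVA for 4 h, the dendritic cell markers Clec9a (-0.39) and Siglech (-0.25) and the monocyte markers Ly6c2 (-1.43) and Cd14 (-0.44) were called lower in KO. Others of these lists, such as Flt3 and Csf1r, were not called. Of T-lineage markers, Rag1 was higher (0.87) and Cd4 lower (-0.36). Their part in the differences was not tested.

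The response itself was compared between the genotypes as an interaction. It differed for 0 of the 78 genes with OVA for 4 h, against 0.0405% of all genes, and for 0 with Jurkat cells for 4 h, against 4.26%. At an unadjusted p under 0.05 there were 8 in each. The shares of all genes given here are at FDR under 0.05, and none is given at the unadjusted cutoff. The nearest to the threshold were Mrpl12 with OVA, at -0.28 (SE 0.09, FDR = 0.388), and Mrps18b with Jurkat cells, at 0.25 (SE 0.09, FDR = 0.0952). For the 30 min time points, compared after the results above were seen, 0 of the 78 were called with OVA, against 0% of all genes, and 0 with Jurkat cells, against 0.00675%. At an unadjusted p under 0.05 there were 4 and 10, again without a share of all genes at that cutoff. DESeq2 also called 0 in all 4 comparisons. With Jurkat cells for 4 h, edgeR called 2 with total counts and up to 2 when 1 library was left out.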

How the data were processed

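RNA was sequenced from 30 libraries in 10 groups of 3 (TruSeq RNA Library Prep Kit v2, per the labels' protocols). The authors deposited whole-number read counts per gene, with mm10 intervals, per the file headers. STAR 2.5, Subread featureCounts 1.5.0-p1 and DESeq2 are named in the submitters' processing notes, without role or settings, and the sources used here give no annotation, use of strand or handling of human reads. Groups and replicate numbers came from the sample titles. Every count column matched 1 title.

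Genes were kept with filterByExpr by group (14808 genes, 99.99% of counts) and scaled with TMM factors. The test was edgeR 4.0.16's quasi-likelihood F test (R 4.3.3), two-sided, fitted once to the 30 libraries with 1 coefficient for each group; p-values were adjusted by Benjamini and Hochberg's method over the genes tested, with a threshold of 0.05. SE is the size of the log2 change divided by the square root of F. The common biological coefficient of variation was 0.0515. CPM use TMM-scaled library sizes. The script was tested on simulated data. Alternatives were DESeq2 1.42.0 (size factors and test), total counts, no filter, at least 5 CPM in 3 libraries, a replicate block, only the groups compared, and leaving out each library. The genes and lists were chosen with earlier results of these data known. Genes given with values were, per treatment comparison, the 5 largest rises and falls without overlap and with at least 5 CPM, per KO comparison the 5 smallest p in each direction, the 3 highest and lowest per length and the S18 paralogs, and from each other list up to 3 smallest p in each direction. Further genes were named after their values were seen. Counts limit precision most in the shallowest library, whose lowest count of these genes was 40. They also limit it for the genes of lowest count in other libraries, where that count was for example 91 in WT given Jurkat cells for 4 h, replicate 2.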

Additional observations from a re-analysis of the deposited data

How the results depend on the processing

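None of the genes given as the largest changes or smallest p of a comparison reversed its direction there under any alternative, but with total counts other genes called after 4 h of Jurkat cells did, 11 in WT and 9 in KO (5 and 3 of them then called lower). Leaving out 1 library at a time gave 55 to 57 calls after 4 h of Jurkat cells in WT, 55 to 58 in KO and 61 to 66 against OVA. The other ranges were 1 to 6 (WT, OVA 30 min), 9 to 15 (WT, OVA 4 h), 14 to 26 (WT, Jurkat 30 min), 1 to 2 (KO, OVA 30 min), 2 to 5 (KO, OVA 4 h), 4 to 9 (KO, Jurkat 30 min) and 18 to 31 (Jurkat against OVA, 30 min). For KO against WT they were 0 to 1 untreated, 0 to 3 and 0 to 4 with OVA for 30 min and 4 h, and 0 to 6 and 2 to 8 with Jurkat cells for 30 min and 4 h; for the interactions at 4 h they were 0 to 0 with OVA and 0 to 2 with Jurkat cells. With only the groups compared in the fit, the count was 0 (KO, OVA 30 min), 2 (KO, Jurkat 30 min) and 0 (KO against WT, Jurkat 30 min), and DESeq2's test gave 2 for KO after OVA for 30 min. With no filter on low counts it was 5 (KO, Jurkat 30 min), 2 (KO against WT, OVA 30 min) and 3 (KO against WT, OVA 4 h), and with total counts 2 (KO against WT, OVA 4 h), 3 (KO against WT, Jurkat 30 min) and 2 (interaction, Jurkat 4 h). The cause was not tested. Whether equal replicate numbers share a batch is not given in the labels. Same-numbered libraries deviated together (every correlation over 0.1) in 0 of 17 comparisons, with correlations from -0.21 to 0.15. With 3 libraries in each group this cannot exclude a pairing, so the block was used as an alternative only. For the genes given as the largest changes or smallest p, the replicate block kept direction and an FDR under 0.05 in 85 of 86 log2 changes. Mrpl32 in KO against WT with Jurkat cells for 4 h lost its call, at -0.17. A replicate block within genotype gave 1, 3, 3 and 5 calls for KO against WT with OVA for 30 min and 4 h and Jurkat cells for 30 min and 4 h.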
